A study of Mus musculus with 6 samples.

Results

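The genes described are the 6 keratins of simple epithelium, Krt7, Krt8, Krt18, Krt19, Krt20 and Krt23. They were taken by symbol from the 24452 symbols of each file, and all 6 were present in every library. Transcripts were measured by mRNA sequencing in the small intestine of C57BL/6 mice at postnatal day 14, while the animals still suckle. There were 3 libraries labelled Erk1/2 -/-, called labelled knockout here, and 3 libraries labelled wild type. The labels name no promoter or Cre driver for the deletion and do not tie the libraries to individual animals. The p-values therefore rest on the variation among the 6 libraries, which could be technical. The series title places the study in negative feedback through the ERK kinases in the intestine after birth.

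Keratins are the intermediate filament proteins of epithelial cells. A filament is built from pairs of 1 type I and 1 type II chain, so a cell needs both types, and an unpaired chain is degraded. In the intestine Krt8 supplies nearly all of the type II protein, and the type I partners are Krt18, Krt19 and Krt20, the last of which marks differentiated cells near the surface. The filaments run to the desmosomes and form a dense web under the brush border, where they give the cell sheet mechanical strength.

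Values are whole numbers per gene that look like read counts scaled between libraries and rounded, called normalised counts here. They summed to between 14825845 and 17153570 in the labelled knockout libraries and to between 13641468 and 14094100 in the wild type libraries. The transcript of Mapk3, a targeted gene that encodes ERK1, was not lower in the libraries labelled as lacking it. It had 3363, 2280 and 2734 normalised counts in labelled knockout 1 to 3 and 3142, 2788 and 2004 in wild type 1 to 3. The groups overlapped, and the difference did not pass the test (limma adjusted p = 0.819). Every direction below is therefore that of the libraries labelled knockout. A pair of libraries stood apart in genes that mark position along the gut. A segment score, the mean log2 level of 5 proximal genes minus that of 3 ileal genes, was -2.34 in labelled knockout 1 and -2.13 in wild type 3, and lay between 2.53 and 4.24 in the other 4 libraries. The ileal genes in the score were Slc51a, Slc51b and Fgf15. Fabp6 and Slc10a2, the rest of 5 listed, did not reach 10 normalised counts in 3 libraries. These genes did not join the pair. Fabp6 had 1947 in labelled knockout 1 and 4 in wild type 3, with 1 to 3 elsewhere, and Slc10a2 had 12 and 1 in the pair. Markers of neighbouring organs were uneven too. Summed normalised counts of 6 pancreas genes were 7825, 4919 and 272 in labelled knockout 1 to 3 and 41679, 2581 and 2470 in wild type 1 to 3, and those of 4 stomach genes were 3, 490 and 10 in labelled knockout 1 to 3 and 4424, 2495 and 1 in wild type 1 to 3. The part of these organs in the keratin values was not tested.

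Keratin transcripts were more abundant in the labelled knockout libraries. Krt8, Krt19, Krt20 and Krt7 rose, Krt18 and Krt23 did not pass the test, and none fell. The 6 genes together held 0.590%, 0.635% and 0.680% of all normalised counts in labelled knockout 1 to 3 and 0.286%, 0.240% and 0.305% in wild type 1 to 3. Genes were tested with limma on log2(normalised count + 1), and a gene was called at a Benjamini-Hochberg adjusted p under 0.05 over the 14686 genes that had at least 10 normalised counts in at least 3 libraries. The 4 called higher of 6 tested stand beside 4.85% called higher among all genes, and the 0 called lower beside 3.94%; in either direction 8.79% of all genes were called. The median log2 fold change of the 6 was 1.36, beside -0.01 over all genes tested. All 6 fold changes were positive, as were 7207 of the 14686. The labelled knockout libraries were all above the wild type libraries for 5 of the 6 genes, which was so for 19.8% of all genes tested (37.6% were without overlap in either direction).

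**Figure D1:**
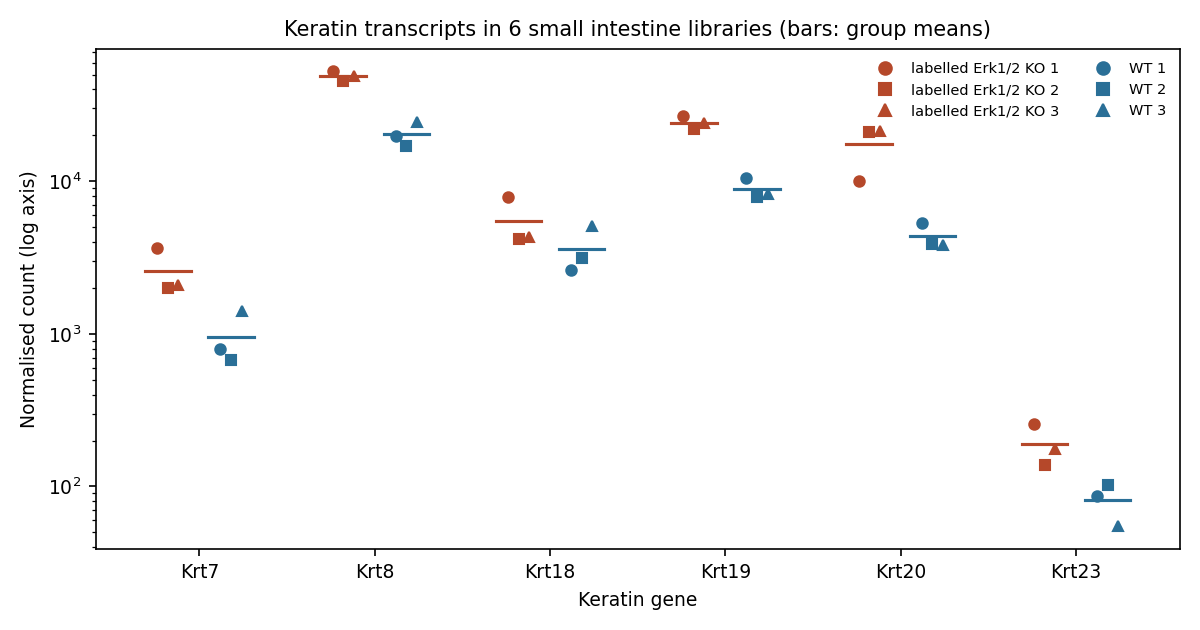
Normalised counts (log axis) of the 6 keratin genes in each library, with labelled knockout left and wild type right; points are libraries and bars are group means. Krt8 lies between 45582 and 52404 in the labelled knockout libraries, above 16993 to 24339 in the wild type libraries, and Krt18 is the one gene whose groups overlap.

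Of the type II chains, Krt8 was the most abundant keratin in every library. The gene lies on chromosome 15 from 101996698 to 102004482 on the minus strand (GRCm38). It had 52404, 45582 and 48916 normalised counts in labelled knockout 1 to 3 and 19893, 16993 and 24339 in wild type 1 to 3. Within each genotype the libraries were close together, and the genotypes did not overlap. The log2 fold change was 1.28 ± 0.20 (SE; limma adjusted p = 0.0200), and the means were 48967 ± 3411 in labelled knockout and 20408 ± 3700 in wild type libraries (SD, n = 3 each), a 2.40-fold ratio. Krt7, the other type II chain, is typical of ducts and some other glandular epithelia and was far less abundant. It lies on the same chromosome from 101411043 to 101430313 on the plus strand, and had 3628, 1995 and 2084 normalised counts in labelled knockout 1 to 3 and 790, 676 and 1402 in wild type 1 to 3. The highest library of each genotype was the one with the low segment score. The change of Krt7 was 1.44 ± 0.34 in log2 units, with a limma adjusted p of 0.0475 just under the threshold, and with upper-quartile scaling its adjusted p was 0.0516.

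Among the type I chains, Krt19 was the most abundant and the most even. It is the smallest keratin and lacks most of the tail that other keratins carry. The gene lies on chromosome 11 from 100140810 to 100148665 on the minus strand, and had 26842, 21937 and 23976 normalised counts in labelled knockout 1 to 3 and 10533, 7938 and 8285 in wild type 1 to 3. Every labelled knockout library was above every wild type library. Its log2 fold change was 1.45 ± 0.18 (limma adjusted p = 0.0125), and the ratio of the means was 2.72-fold. Krt20 had the greatest fold change of the 6. It lies on chromosome 11 from 99428403 to 99438150 on the minus strand. It had 10112, 20961 and 21424 normalised counts in labelled knockout 1 to 3 and 5342, 3907 and 3834 in wild type 1 to 3. Labelled knockout 1 was thus well below the other labelled knockout libraries but still above all wild type libraries. The log2 fold change was 1.94 ± 0.32 (limma adjusted p = 0.0219), or 4.01-fold between the means.

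Krt18, the usual partner of Krt8 in simple epithelia, did not pass the test. It is the single type I gene that lies in the type II cluster, on chromosome 15 from 102028180 to 102032027 on the plus strand, 23.7 kb from Krt8 and transcribed away from it. It had 7928, 4178 and 4301 normalised counts in labelled knockout 1 to 3 and 2608, 3152 and 5064 in wild type 1 to 3. The genotypes overlapped, because wild type 3 was above labelled knockout 2 and 3. The log2 fold change of 0.59 ± 0.34 did not pass (limma adjusted p = 0.275), and its 95% interval ran from -0.20 to 1.39. Krt23, a type I keratin that is scarce in this tissue, lies on chromosome 11 from 99477974 to 99493137 on the minus strand, beside Krt20. It had 256, 139 and 175 normalised counts in labelled knockout 1 to 3 and 87, 102 and 55 in wild type 1 to 3. These groups did not overlap, but the log2 fold change of 1.21 ± 0.31 missed the threshold at a limma adjusted p of 0.0573.

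The start regions of Krt8, Krt18 and Krt20 are shown because the first pair are neighbours and partners that differed in their call, and Krt20 had the greatest change. Each run holds 250 bases before and 50 after the RefSeq start (GRCm38.p6) and is written 5′ to 3′ on the gene's strand. Capitals mark matches to the motifs searched, and where matches overlap their capitals run together.
Krt8, chr15:102004293-102004592, minus strand: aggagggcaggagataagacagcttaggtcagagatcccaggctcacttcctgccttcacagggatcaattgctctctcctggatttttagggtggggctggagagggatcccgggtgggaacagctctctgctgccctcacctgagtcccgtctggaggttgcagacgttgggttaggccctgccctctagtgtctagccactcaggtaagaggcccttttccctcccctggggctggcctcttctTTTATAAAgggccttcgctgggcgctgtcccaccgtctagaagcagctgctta
Krt18, chr15:102027966-102028265, plus strand: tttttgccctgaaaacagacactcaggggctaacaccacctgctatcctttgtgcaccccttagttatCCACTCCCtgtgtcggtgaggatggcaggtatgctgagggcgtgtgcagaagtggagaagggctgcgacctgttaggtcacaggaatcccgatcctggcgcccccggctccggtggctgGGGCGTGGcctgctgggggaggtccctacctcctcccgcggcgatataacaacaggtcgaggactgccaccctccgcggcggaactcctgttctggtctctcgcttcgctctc
Krt20, chr11:99438104-99438403, minus strand: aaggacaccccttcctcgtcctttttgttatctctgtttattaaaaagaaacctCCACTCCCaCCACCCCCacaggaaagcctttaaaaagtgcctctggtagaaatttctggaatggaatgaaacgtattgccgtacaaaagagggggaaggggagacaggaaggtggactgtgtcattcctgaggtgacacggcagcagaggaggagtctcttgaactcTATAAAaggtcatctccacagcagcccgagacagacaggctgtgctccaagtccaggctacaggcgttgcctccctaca
The motifs were searched on both strands. The TATA box was searched as TATAAA. The site of AP-1, whose factors lie downstream of ERK, was searched as TGANTCA. That of the ETS factors, which ERK can phosphorylate, was searched as CGGAAG. The letters for the KLF factors, several of which act in gut epithelium, were GGGNGTGG. Those for the intestinal CDX factors were TTTATG. The exact letters TATAAA were found in the windows of Krt8 and Krt20 and not in that of Krt18. Of the 32851 RefSeq windows of this length, 13.6% hold them. In Krt20 they begin 29 bases before the start. In Krt8 a pair of overlapping matches begins 3 bases and 1 base before the start and so runs across it. The coordinates given above for Krt8 begin at 102004482 on its strand, upstream of this RefSeq start. By those coordinates the matches lie inside the gene, so their position depends on the annotation used. Variants of these letters were not searched, so whether Krt18 has another form of TATA box was not tested. The KLF letters were found in the windows of Krt18 and Krt20, as in 17.6% of all windows. The AP-1 letters, which 7.81% of windows hold, and the ETS letters, which 16.9% hold, were found in none of the 5 member windows that could be matched, those of Krt7, Krt8, Krt18, Krt20 and Krt23. Krt23 has 1 match to the CDX letters, which 11.8% of windows hold, and Krt7 has no match to any of the 5.

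The rise left the balance of the chain types close to even. Levels of different genes were compared as normalised counts per kb of exon, with the union of the exons of each gene in the GENCODE vM21 annotation as its length. The type I chains summed to 25398, 25700 and 27148 per kb in labelled knockout 1 to 3 and to 10321, 8565 and 10015 in wild type 1 to 3. The type II chains summed to 27279, 23563 and 25278 per kb in labelled knockout 1 to 3 and to 10272, 8775 and 12629 in wild type 1 to 3. Their ratio, type I over type II, was therefore 0.931, 1.09 and 1.07 in labelled knockout 1 to 3 and 1.00, 0.976 and 0.793 in wild type 1 to 3. The groups overlapped in this ratio while both sums were far apart, and the mean log2 ratio was 0.04 ± 0.13 in labelled knockout and -0.12 ± 0.19 in wild type libraries (SD, n = 3 each). This is a balance of transcripts whose level depends on the gene lengths used, and protein was not measured here.

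**Figure D2:**
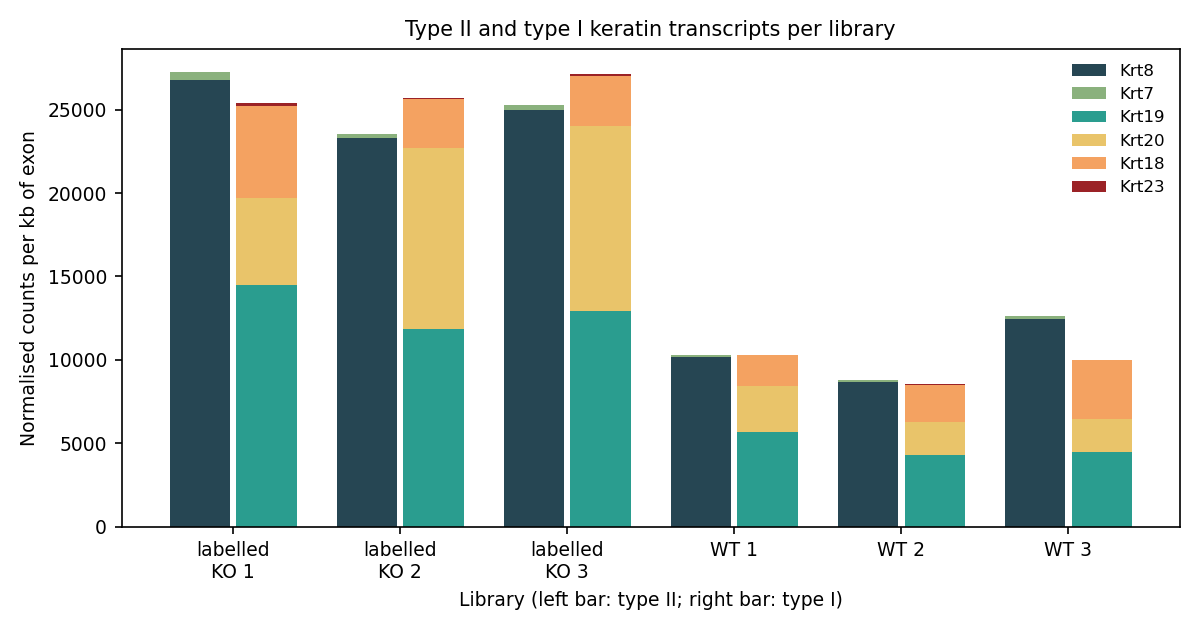
Normalised counts per kb of exon in each library, stacked by gene, with type II chains in the left bar and type I chains in the right bar. The 2 bars of a library are of similar height, and both are higher in the labelled knockout libraries (23563 to 27279 per kb) than in the wild type libraries (8565 to 12629 per kb).

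The make-up of each type was described by the share of each gene. Krt8 made up between 98.1% and 98.8% of the type II level per kb in the labelled knockout libraries and between 98.4% and 98.9% in the wild type libraries. The exon union of Krt7 is 7049 bases from 5 transcripts, and its longest transcript is 4094, so the union lowers its share. Krt19 held the greatest type I share in all 6 libraries, at 57.0%, 46.02% and 47.6% in labelled knockout 1 to 3 and 55.0%, 49.96% and 44.6% in wild type 1 to 3. The share of Krt20 was 20.7%, 42.3% and 41.0% in labelled knockout 1 to 3 and 26.9%, 23.7% and 19.9% in wild type 1 to 3. That of Krt18 was 21.7%, 11.3% and 11.03% in labelled knockout 1 to 3 and 17.6%, 25.6% and 35.2% in wild type 1 to 3. Labelled knockout 2 and 3 thus had more Krt20 and less Krt18 in their type I pool than any wild type library, and labelled knockout 1 lay within the wild type range for both. Krt23 stayed under 1% of the type I pool, between 0.346% and 0.644% in labelled knockout and between 0.351% and 0.761% in wild type libraries.

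In order of level per kb, Krt8 led and Krt19 came second in every library, and Krt7 and Krt23 came last in that order. Krt20 and Krt18 changed places. Krt20 was above Krt18 in labelled knockout 2 and 3 and in wild type 1, and below it in labelled knockout 1 and in wild type 2 and 3. The mean levels per kb were 9081 ± 3322 for Krt20 and 3806 ± 1483 for Krt18 in labelled knockout, and 2263 ± 441 for Krt20 and 2511 ± 898 for Krt18 in wild type libraries (SD, n = 3 each), so in wild type they did not differ beyond their spread.

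Whether the genes differed in their change was tested on the log2 ratio of each member to Krt8, with a two-sided exact permutation test over the 6 libraries. The smallest p that 3 against 3 can give is 0.1, so none of the 5 pairs could pass 0.05. Krt20 over Krt8 was -2.37, -1.12 and -1.19 in labelled knockout 1 to 3 and -1.90, -2.12 and -2.67 in wild type 1 to 3, a difference of 0.67 (exact p = 0.3, adjusted over the 5 pairs 0.75). Krt18 over Krt8 was -2.72, -3.45 and -3.51 in labelled knockout 1 to 3 and -2.93, -2.43 and -2.27 in wild type 1 to 3, a difference of -0.68 (exact p = 0.2, adjusted 0.75). For Krt7, Krt19 and Krt23 the differences were 0.17, 0.17 and -0.06, with adjusted exact p of 0.75, 0.75 and 1. In all 5 ratios the genotypes overlapped over the 6 libraries, and a test of this size cannot say whether the members changed equally. For Krt20 the overlap came from labelled knockout 1, and for Krt18 it lay between labelled knockout 1 and wild type 1. Leaving out labelled knockout 1 and wild type 3 therefore ends both overlaps by that choice, which is no test, and 2 libraries of each genotype then remain.

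Levels of Krt18, Krt7 and Krt20 also moved with the segment score, a relation fitted after the values were seen. In a limma fit with genotype and the segment score, the slope on the score was -0.15 ± 0.02 for Krt18 (log2 per unit of score; adjusted p = 0.00753), -0.15 ± 0.02 for Krt7 (adjusted p = 0.0152) and 0.13 ± 0.03 for Krt20 (adjusted p = 0.0499). These 3 of 6 stand beside 10.3% of all genes with a called slope in either direction. Krt18 and Krt7 were thus higher where the score was low and Krt20 where it was high, while the slopes of Krt8, Krt19 and Krt23 did not pass (adjusted p from 0.320 to 0.881). With the score in the fit all 6 keratins were called higher, beside 16.3% of all genes, with log2 fold changes from 0.71 (Krt18, adjusted p = 0.00620) upward. Without labelled knockout 1 and wild type 3, all 6 were again called higher, beside 14.3% of genes. Krt18 then had 0.56 ± 0.13 (limma adjusted p = 0.0221) and Krt23 0.72 ± 0.19 (limma adjusted p = 0.0346). Both libraries were picked by their scores in these same data, and wild type 3 was the library that made the Krt18 groups overlap. These calls are therefore no separate support for a rise of Krt18 or Krt23, and neither are those with the score in the fit.

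The calls depended on single libraries, as did those of all genes. Leaving out labelled knockout 1 kept all 4 calls, leaving out labelled knockout 2 kept 2 (Krt8 and Krt19), and leaving out labelled knockout 3 kept 0. Leaving out wild type 1 kept 1 (Krt19), wild type 2 kept 0, and wild type 3 kept 3 (Krt7, Krt8 and Krt19). Over all genes, beside 712 called higher with all libraries, 1546, 323 and 26 were called higher without labelled knockout 1, 2 and 3, and 71, 56 and 269 without wild type 1, 2 and 3. Fold changes moved less: over these 6 fits they ran from 1.15 to 1.41 for Krt8, from 1.37 to 1.57 for Krt19, from 1.76 to 2.30 for Krt20 and from 1.17 to 1.76 for Krt7 on the log2 scale. For Krt18 they ran from 0.29 without labelled knockout 1 to 0.86 without wild type 3. When libraries were scaled to equal totals, the median over all tested genes became -0.19, and the same 4 keratins were called there.

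**Figure D3:**
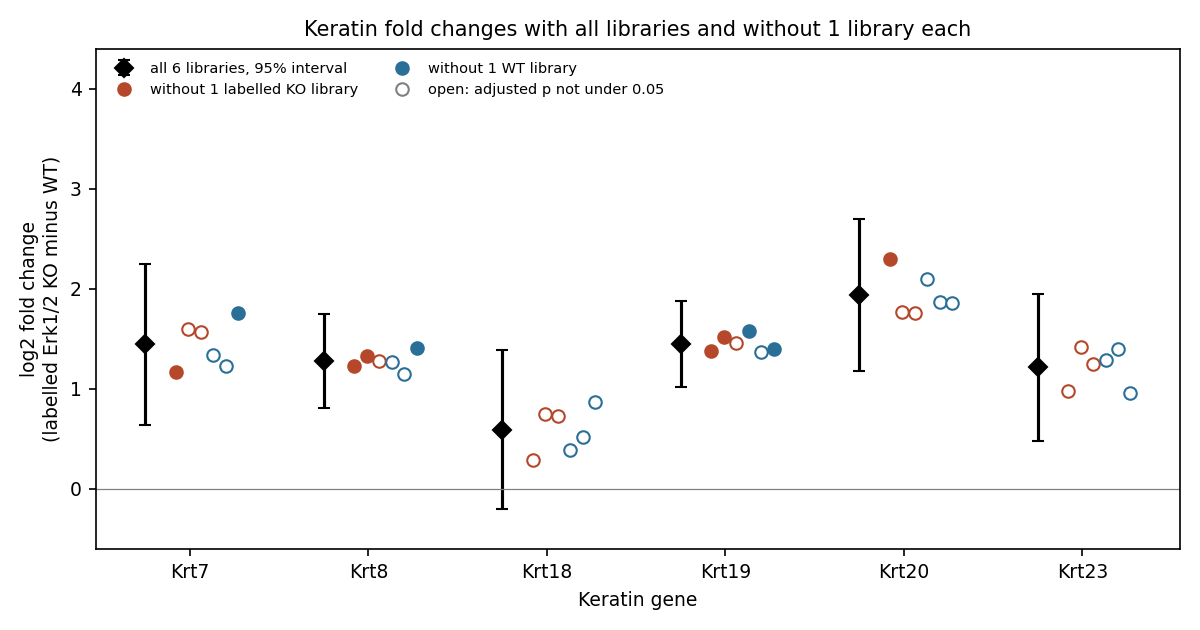
Log2 fold change of each keratin (labelled knockout minus wild type) with all 6 libraries (diamond, 95% interval) and in the 6 fits that leave out 1 library (circles; filled where the adjusted p is under 0.05). All fold changes are above 0, most circles of Krt7 and Krt20 and all of Krt18 and Krt23 are open, and 3 of 6 are filled for Krt8 and 4 of 6 for Krt19.

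The level of epithelium itself was checked next. Bulk RNA cannot tell a larger share of epithelial cells from more transcript per cell. Of 12 genes taken as epithelial markers, 2 rose, beside 4.85% of all genes. They were the tight junction gene Cldn3 (1.16 ± 0.21, limma adjusted p = 0.0273) and the splicing factor gene Esrp1 (0.83 ± 0.18, limma adjusted p = 0.0404). The median log2 fold change of the 12 was 0.46, and their summed normalised counts ranged from 125218 to 128709 in the labelled knockout libraries and from 83914 to 98774 in the wild type libraries. The epithelial adhesion gene Epcam had 32017, 29924 and 29038 in labelled knockout 1 to 3 and 20039, 20965 and 28736 in wild type 1 to 3, and its fold change of 0.40 ± 0.20 did not pass (limma adjusted p = 0.218). The keratins were therefore also set against the mean log2 level of the 12 genes. On that scale Krt8 was at 3.10, 3.03 and 3.02 in labelled knockout 1 to 3 and at 2.33, 2.14 and 2.43 in wild type 1 to 3, a difference of 0.75. Krt20 differed by 1.42, Krt19 by 0.93, Krt7 by 0.92, Krt23 by 0.69 and Krt18 by 0.07. The genotypes stayed apart for Krt7, Krt8, Krt19 and Krt20 and overlapped for Krt18 and Krt23. The share of all genes that stay apart on this scale was not computed. On the plain values it was 37.6% in either direction. When 1 library was left out, the difference ran from -0.20 (without labelled knockout 1) to 0.27 (without wild type 3) for Krt18, and that of Krt23 was 0.37 without wild type 3. With Epcam alone in place of the 12 genes, the difference of Krt8 was 0.87.

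**Figure D4:**
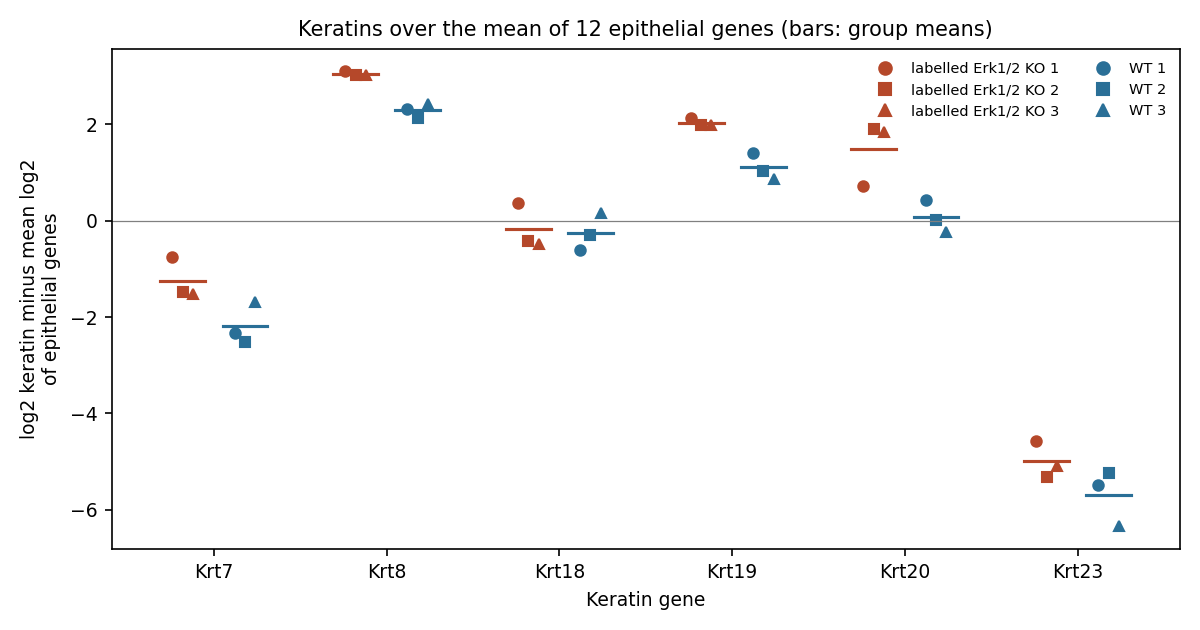
Log2 level of each keratin minus the mean log2 level of 12 epithelial genes in each library, with labelled knockout left and wild type right; bars are group means. Krt8 is 0.75 higher and Krt20 1.42 higher in labelled knockout, and the groups of Krt18 and Krt23 overlap.

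Markers of other keratin-bearing cells were then counted. Among 9 squamous epithelium markers, Krt6a was at 0 in every library, and the summed level was 69 to 120 in the labelled knockout libraries and 77 to 93 in the wild type libraries. The basal keratins Krt5 and Krt14 did not exceed 2 and 10 normalised counts in any library. The 5 mesothelium markers summed to 164 to 240 in the labelled knockout libraries and 162 to 294 in the wild type libraries, with none called. Tuft cells are rich in Krt18, and 6 of their markers summed to 87, 237 and 201 in labelled knockout 1 to 3 and 532, 377 and 189 in wild type 1 to 3, with 0 of 3 tested called. Goblet cell markers moved with the keratins in part. Of the 6, 1 rose, the mucus lectin gene Zg16 (1.44 ± 0.32, limma adjusted p = 0.0419), beside 4.85% of all genes. The median log2 fold change of the 6 was 0.98, with 5 positive. The genotypes did not overlap for 5 of the 6, beside 37.6% of all genes in either direction. The summed level of the goblet markers was 88005 to 127020 in labelled knockout and 45118 to 70348 in wild type libraries. The upper villus list had 0 of 6 called, with a median log2 fold change of 0.39. Its summed level was 1343724, 712906 and 839486 in labelled knockout 1 to 3 and 1090697, 1312905 and 1038264 in wild type 1 to 3, most of it from the apolipoprotein gene Apoa4. The part of goblet and villus cells in the keratin values was not tested.

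Genes that anchor or handle keratin filaments changed in part. Of 13 desmosome and plakin genes, 2 rose and 1 fell, with a median log2 fold change of 0.36. Among all genes, 4.85% were called higher and 3.94% lower. Pkp2 and Pkp3 encode plakophilins, which tie desmosomal cadherins to the plaque. Pkp2 had 743, 1052 and 1004 normalised counts in labelled knockout 1 to 3 and 443, 414 and 477 in wild type 1 to 3 (1.05 ± 0.17, limma adjusted p = 0.0210). Pkp3 had 2824, 2699 and 2914 in labelled knockout 1 to 3 and 1383, 1412 and 1557 in wild type 1 to 3 (0.96 ± 0.12, limma adjusted p = 0.0134). Eppk1, encoding epiplakin, a plakin that binds keratin and protects the network under stress, was the one that fell. It had 1424, 1792 and 1126 in labelled knockout 1 to 3 and 2689, 3068 and 2630 in wild type 1 to 3, a change of -0.97 ± 0.19 in log2 units (limma adjusted p = 0.0330). Dsp, encoding desmoplakin, the main link of keratin to desmosomes, had 5812, 10806 and 10081 in labelled knockout 1 to 3 and 7299, 7506 and 7175 in wild type 1 to 3. It did not pass (0.23 ± 0.25), and neither did the crosslinker gene Plec (0.60 ± 0.28; limma adjusted p of 0.566 and 0.204). Of 6 keratin-binding regulators, Fam83h, which recruits casein kinase 1 to keratin, rose by 0.99 ± 0.19 (limma adjusted p = 0.0289), and none of the others passed. This 1 of 6 stands beside the 4.85% of all genes called higher.

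Intermediate filament genes outside the keratin family were the last list. Of 15 such genes 1 rose, a share near the 4.85% called higher among all genes. It was Lmna, which encodes the nuclear lamins A and C, with 3116, 2725 and 3338 in labelled knockout 1 to 3 and 1449, 1143 and 1234 in wild type 1 to 3 (1.26 ± 0.15, limma adjusted p = 0.0121). The genotypes did not overlap. Vim, the filament gene of mesenchymal cells, had 3111, 2079 and 1906 in labelled knockout 1 to 3 and 2292, 2194 and 2309 in wild type 1 to 3 (0.03 ± 0.20), and Des, that of muscle, had -0.18 ± 0.19. Neither passed (limma adjusted p of 0.934 and 0.541), and the median over the 15 was 0.01. Leaving out labelled knockout 3 or wild type 2 ended the calls of Pkp2, Pkp3, Eppk1, Fam83h and Lmna, and leaving out wild type 1 ended all of these but that of Lmna. Those of Pkp2 and Eppk1 also ended without wild type 3, and that of Fam83h without labelled knockout 2 and with scaling by library totals, at an adjusted p of 0.0564. The adjusted p of these lost calls ran from 0.0550 (Pkp2 without wild type 3) to 0.162 (Eppk1 without wild type 2). The calls of Cldn3, Esrp1 and Zg16 likewise ended without labelled knockout 3, wild type 1 or wild type 2, at adjusted p from 0.0885 to 0.184. Those of Cldn3 and Esrp1 also ended without wild type 3 (0.0701 and 0.110). Those of Esrp1 and Zg16 ended without labelled knockout 2 (0.0764 and 0.0829) and with scaling by library totals (0.0999 and 0.0513).

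**Figure D5:**
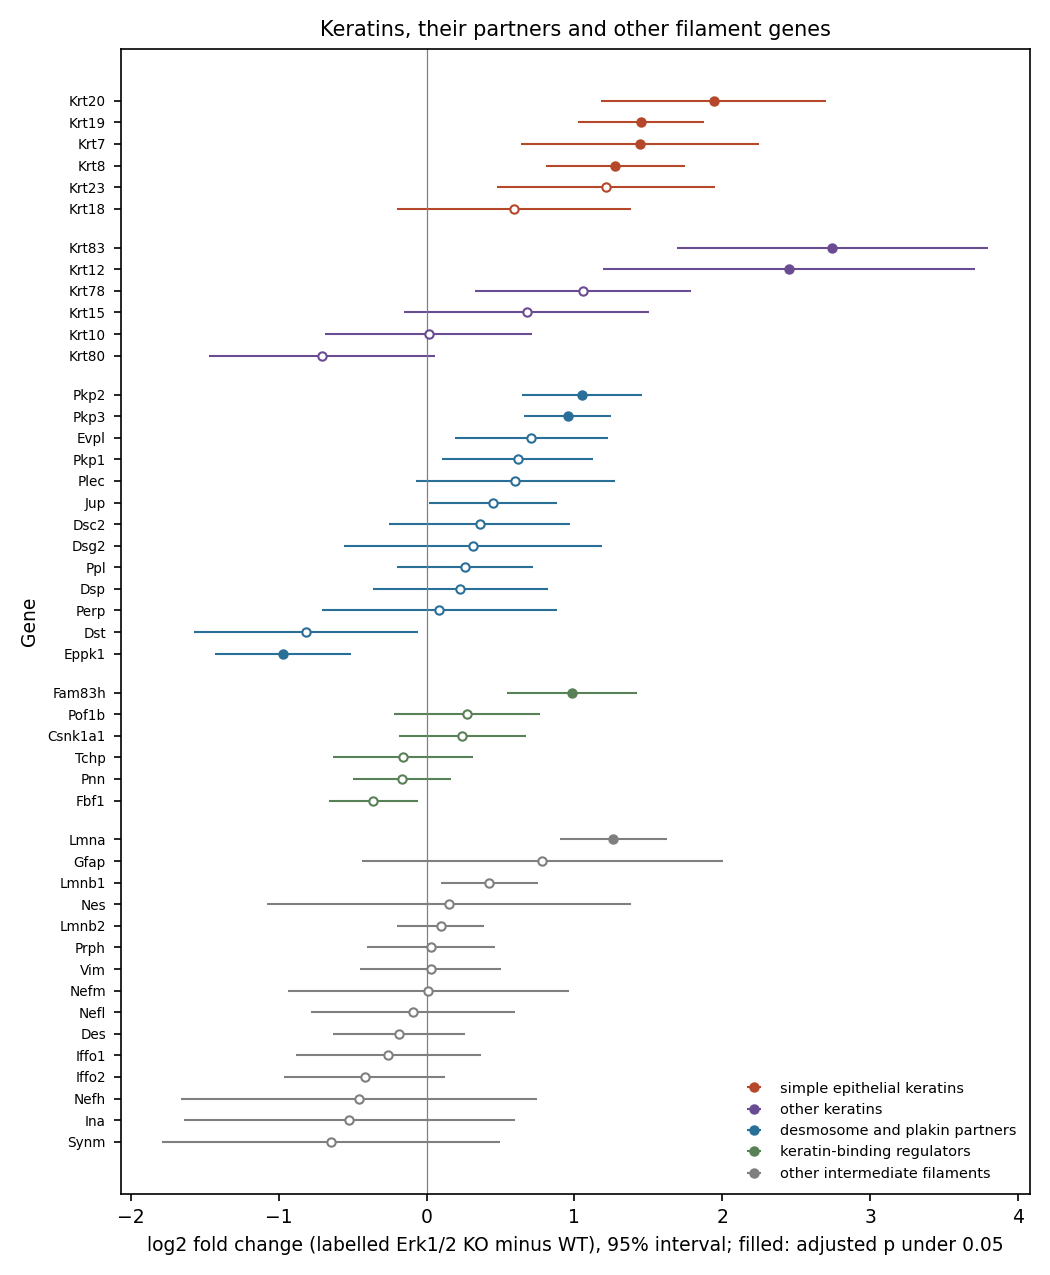
Log2 fold changes (labelled knockout minus wild type) with 95% intervals for the 6 keratins, other keratins, desmosome and plakin genes, keratin-binding regulators and other intermediate filament genes that were tested. Filled points passed; they include Pkp2, Pkp3, Fam83h and Lmna on the higher side and Eppk1 on the lower side.

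The genes with profiles most like each keratin were found by the root mean square difference of centred log2 values over the 6 libraries, among 10623 genes with a mean of at least 100 normalised counts. The nearest to Krt8 were Prr13 (0.0613), the lipid enzyme gene Agpat2 (0.0834) and the transcription factor gene Mlx (0.0900). Krt19 had Ldha, encoding lactate dehydrogenase A, as its nearest gene (0.0576), and Krt7 had the tetraspanin gene Tspan8 (0.116) and Pllp (0.118). For Krt18 the nearest were Mb21d2 (0.0808), Tmem54 (0.0871) and the intestinal transcription factor gene Cdx1 (0.109). Krt20 and Krt23 had no gene as close, the nearest being Mfsd4 at 0.184 and Kremen2 at 0.220. Among the keratins themselves, Krt8 and Krt19 were the closest pair at 0.210 and Krt18 and Krt20 the most distant at 1.03.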

How the data were processed

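Small intestine RNA was made into libraries with the TruSeq RNA kit, per the labels' protocols, and the files were grouped by sample title. Per the submitters' processing notes, TopHat2 2.1.0, HTSeq 0.6.0, DESeq2 and the mm10 build were used. Neither the gene annotation nor the handling of strand and of multiply aligned reads is given in these sources, so Krt8 and its pseudogene could share reads. Each gene has a deposited score, a whole number that looks like a scaled and rounded read count, and raw depth is unknown.

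The authors' scaling was kept. limma 3.58.1 in R 4.3.3 was run with an intensity trend on log2(value + 1), two-sided, with 4 residual and 2.99 prior degrees of freedom, and tested on simulated data. Fold changes are on this scale and understate those of low genes. Lengths came from GENCODE vM21 (GRCm38), which mm10 names, and start regions from RefSeq, matched by symbol for 5 of 6 members.

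Members and lists were chosen with earlier results of these data known. The rule for named genes took all members, the lowest p-values and most abundant genes of each list, and the 3 nearest profiles, and these are named in part. Part of the label check is not reported here. Segment slopes and neighbouring keratins were added after the values were seen. The alternatives changed scaling, pseudocount, filter, weights, replicate block, segment covariate, gene length, the epithelial yardstick and the libraries used.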

Additional observations from a re-analysis of the deposited data

How the results depend on the processing

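All 6 keratin fold changes kept a positive sign in all 17 alternatives each. The number of keratins called higher, 4 with all libraries, ran from 0 to 4 when 1 library was left out. In the same fits the number of all genes called higher ran from 26 to 1546 (712 with all libraries). No member keratin was called lower in any alternative. Samples of the 2 genotypes share only their replicate numbers. Their deviations from the group means correlated at -0.373, 0.302 and -0.161 across genes for numbers 1, 2 and 3. The sign was thus not the same for all numbers. The highest correlation, 0.412, was between labelled knockout 1 and wild type 3, the libraries with low segment scores. With 3 libraries per group and such differences, this check cannot exclude a batch shared by number. With the replicate block 0 keratins were called, with adjusted p of 0.0841 for Krt8, 0.0599 for Krt19, 0.0889 for Krt20 and 0.111 for Krt7, and over all genes 55 were called higher and 9 lower, in place of 712 and 579. Krt7 also missed the threshold with upper-quartile factors (0.0516) and with no filter on low values (0.0588). The difference in the log2 ratio of type I to type II, 0.16, ran from 0.06 to 0.23 when 1 library was left out and was 0.16 with the longest transcript and 0.20 with no length scaling. The difference against Krt8 changed sign for Krt7 (-0.0598 to 0.345), Krt19 (-0.00866 to 0.310) and Krt23 (-0.452 to 0.246) when 1 library was left out, and the cause was not tested. It kept its sign for Krt20 (0.45 to 1.07, the highest without labelled knockout 1) and Krt18 (-0.94 to -0.54). Without read depth, no counting interval could be given, which matters most for Krt23 and the scarcer keratins.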

Other observations

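Beside the 6 members, 46 keratin symbols were listed, of which 21 were at 0 in every library and 6 passed the filter on low values. The highest value among all 46 was 109 normalised counts. Of the 6 tested, 2 were called higher, and both passed the filter through the labelled knockout libraries, where they were high, so their calls are no support for a rise. Krt12, the keratin of the corneal epithelium, had 27, 36 and 109 in labelled knockout 1 to 3 and 10, 6 and 8 in wild type 1 to 3 (log2 fold change 2.45 ± 0.53, limma adjusted p = 0.0399). Krt83, a hair keratin, had 36, 16 and 35 in labelled knockout 1 to 3 and 4, 4 and 2 in wild type 1 to 3 (2.75 ± 0.45, limma adjusted p = 0.0210). Krt12 lost its call without any 1 library other than labelled knockout 1, and Krt83, which was untested without a labelled knockout library, lost it without each wild type library. The adjusted p of these lost calls ran from 0.0643 to 0.171 for Krt12 and from 0.0548 to 0.107 for Krt83, and with scaling by library totals that of Krt12 was 0.0516.

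Positions of scarce keratin genes beside the members were looked up after the values were seen. Krt12 lies 6.14 kb downstream of Krt20 on the same strand, and Krt15, with 38, 20 and 44 in labelled knockout 1 to 3 and 19, 24 and 17 in wild type 1 to 3, lies 4.88 kb downstream of Krt19 on the same strand and was not called (limma adjusted p = 0.237). Krt87, 0.724 kb downstream of Krt7 on the opposite strand, has Krt83 among its synonyms in RefSeq, which also lists another gene as Krt83, and the files do not say which of them that row holds. Krt78, the next keratin downstream of Krt8 at 42.4 kb, had 15, 13 and 17 in labelled knockout 1 to 3 and 7, 6 and 7 in wild type 1 to 3 and was not called (limma adjusted p = 0.0746). Krt80, 40.9 kb upstream of Krt7 on the opposite strand, went the other way. It had 11, 12 and 9 in labelled knockout 1 to 3 and 22, 13 and 20 in wild type 1 to 3. These groups did not overlap, and Krt80 was not called (limma adjusted p = 0.1925). Krt9, upstream of Krt19, and Krt39, upstream of Krt23, did not exceed 1 normalised count in any library. Whether reads of the abundant members enter these rows was not tested, since the files hold no values by exon or strand.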
